A study of Mus musculus with 6 samples.

Results

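The D cyclin genes Ccnd2 and Ccnd3, the G1 kinase genes Cdk2, Cdk4 and Cdk6, the pocket protein genes Rb1, Rbl1 and Rbl2 and the E2F genes E2f3 and E2f4 were followed in mouse cells of T-ALL, an acute leukaemia of T cell precursors, given an inhibitor of histone deacetylases. They were taken by name, 10 genes of 13185 rows in the table, and all 10 had levels high enough to be tested. The cells were Notch1-driven T-ALL cells, described in the labels as oncogenic lymphocytes. In 3 libraries they had received 25 nM panobinostat for 2 h (PANO), and in 3 libraries they were untreated (UT). Both groups were grown on 2.5 ug/mL of plate-bound antibody to CD3, a stimulus through the T cell receptor, with IL-2, a T cell growth factor, at 100 U/mL. RNA was measured with a 3′ end kit, which reads the polyadenylated end of each transcript, so it does not tell splice forms apart. The deposited values were taken as log2 CPM, the logarithm of a gene's reads after scaling for library depth. This unit was inferred from the values, which also looked quantile normalized between libraries.

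In G1, D cyclins bind Cdk4 or Cdk6, and E cyclins bind Cdk2. These kinases phosphorylate the pocket proteins Rb1, Rbl1 (p107) and Rbl2 (p130), which otherwise hold E2F factors. E2f3, an activating factor once released, binds mainly Rb1, whereas E2f4, which mostly acts as a repressor, binds all of the pocket proteins and carries Rbl1 or Rbl2 to promoters. In T-lineage cells cyclin D3 with Cdk6 or Cdk4 drives the expansion of early thymocytes, and Ccnd3 is required for Notch1-induced T-ALL in mice.

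Sequencing depth was read from the smallest steps among low values and came to 6.01, 6.77 and 7.59 reads per CPM in PANO libraries 1 to 3 and 7.74, 6.74 and 6.60 in UT libraries. Quantile normalization can alter such steps, so these depths are estimates. The gene with the fewest reads, Rbl2, then rested on an estimated 66.5 to 91.3 reads per library, and Ccnd3, with the most, on 6250 to 9321. The lowest value in any library was that of E2f4, at an estimated 62.5 reads in UT library 3. UT library 1 lay nearer the PANO libraries on the first principal component (-25.7) than UT library 2 (-48.0) or 3 (-41.0) did, while the PANO libraries lay at 35.4 to 43.2. All 10 T lineage markers examined were present, with summed levels of 1277 to 1312 CPM in PANO and 1629 to 1757 CPM in UT libraries. Of these, 1 rose (Notch1 itself) and 5 fell. Over all tested genes 19.2% rose and 19.0% fell by the same test, which is described below. Erythroid markers, mostly globins, summed to 6306 to 6708 CPM in PANO and 6708 to 7964 CPM in UT libraries (1 rose and 4 fell of 7). The sums were 1055 to 1152 CPM in PANO and 1295 to 1469 CPM in UT libraries for myeloid markers (0 rose and 4 fell of 8). B cell markers summed to 60.6 to 69.7 CPM in PANO and 74.8 to 79.5 CPM in UT libraries (0 rose and 2 fell of 5). The lowest value of any of these markers was 0.27 log2 CPM (Ly6g), and the B cell marker Pax5 and the 4 natural killer markers were not among the rows analysed here. In bulk RNA, fewer cells of a type and less RNA per cell cannot be told apart, and the part of these cells in the results was not tested.

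The 10 genes split. Cdk2, Rb1 and E2f4 rose in PANO cells, by 0.76 to 1.20 on the log2 scale, and Cdk4, Cdk6, Rbl1 and E2f3 fell, by 0.41 to 0.81. Ccnd2, Ccnd3 and Rbl2 did not pass the test. Each of the classes of kinases, pocket proteins and E2F factors therefore held genes that rose and genes that fell. With 7 of 10 genes called (limma, Benjamini-Hochberg adjusted p below 0.05 over 12554 tested genes), the share may be read against 38.3% of all tested genes called. Rises were 19.2% and falls 19.0% of all tested genes. In 8 of the 10 genes the PANO and UT libraries did not overlap, against 51.4% of all tested genes. The median log2 fold change of the 10 genes was -0.13, against -0.0052 over all tested genes, and the median size of a change was 0.45 against 0.40. The table looked quantile normalized, so that a shift of all transcripts in 1 direction cannot be seen in it.

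**Figure D1:**
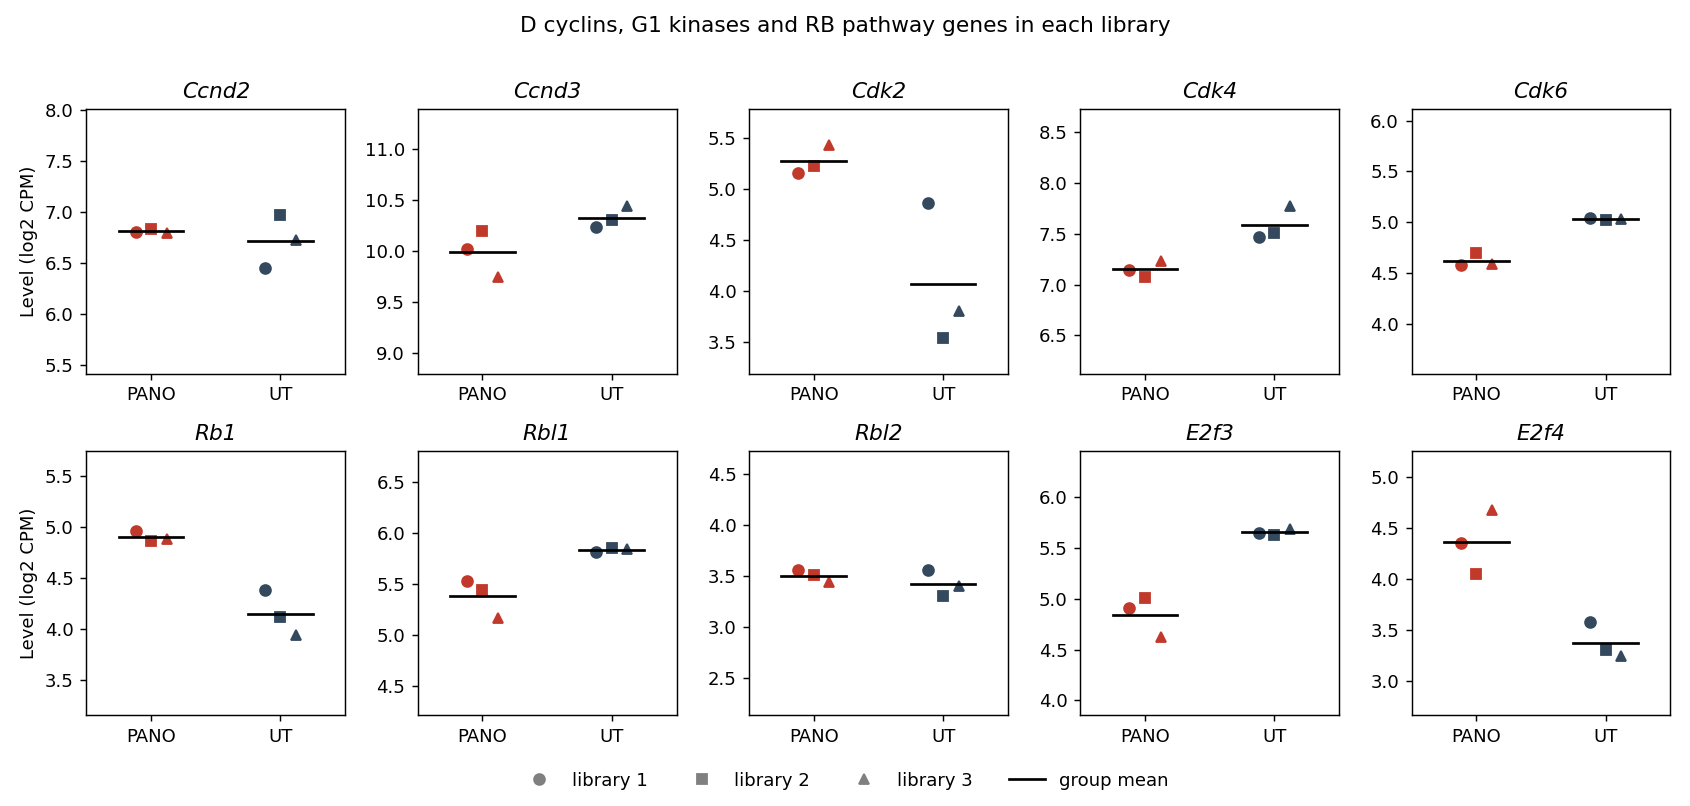
Level (log2 CPM) of each of the 10 genes in the 3 PANO and 3 UT libraries, with a bar at the group mean; every panel spans the same number of log2 units, and the marker shape gives the library number. Cdk2, Rb1 and E2f4 are higher in all PANO libraries, Ccnd3, Cdk4, Cdk6, Rbl1 and E2f3 are lower in all PANO libraries, and Ccnd2 and Rbl2 overlap.

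The bases before the transcription start were available for 7 of the 10 genes, with 9 starts in all (RefSeq, GRCm38.p6). Ccnd2, Rb1 and E2f4 had none, so of the genes that rose only Cdk2 could be searched. They were searched for E2F words and for the E-box CACGTG, bound by Myc, Max and related factors, because the changed genes include E2F factors, their partners and the Myc target Cdk4. The E2F words were TTTCCCGC, TTTCGCGC, TTTGCCGC and TTTGGCGC on both strands in the 250 bases before a start. Each stretch below runs 5′ to 3′ on the gene's strand with the matched word in capitals (GCGGGAAA is TTTCCCGC read on the other strand) and ends before the start of transcription.
Rbl1, chr2:157204535-157204567, minus strand: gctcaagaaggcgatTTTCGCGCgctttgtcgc
E2f3, first start, chr13:29986064-29986089, minus strand: tggtttgaaaagccgGCGGGAAAtct
Cdk2, chr10:128705169-128705206, minus strand: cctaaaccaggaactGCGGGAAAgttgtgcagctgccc
Cdk4, chr10:127063348-127063534, plus strand: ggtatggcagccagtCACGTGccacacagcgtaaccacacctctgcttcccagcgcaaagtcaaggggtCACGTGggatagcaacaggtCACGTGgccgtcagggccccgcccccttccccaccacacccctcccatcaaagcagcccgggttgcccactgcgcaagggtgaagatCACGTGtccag
Cdk6, chr5:3343658-3343693, plus strand: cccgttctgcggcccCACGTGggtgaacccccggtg
E2f3, second start, chr13:29984395-29984430, minus strand: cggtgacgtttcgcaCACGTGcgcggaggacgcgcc

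An E2F word stood before 3 of the 9 starts, each of a different gene, against 1.86% of 32851 mouse promoters of the same length. Of these genes Rbl1 and E2f3 fell and Cdk2 rose, so the word did not go with 1 direction. The E-box stood before 3 of the 9 starts, against 6.02% of all promoters, and it occurred 4 times before Cdk4. The Cdk6 stretch lies inside the gene as placed in GENCODE M21 (3341485 to 3531008). It precedes a RefSeq start further downstream, and the bases before the GENCODE start were not searched. The genes with an E-box, Cdk4, Cdk6 and (at its second start) E2f3, all fell. Since Cdk2 was the only searched gene that rose, this shared direction cannot be read as going with the word. Another word, TTTGAA, known from genes of late cell cycle as the CHR, was found before 2 of the 9 starts, those of Rbl2 and the first of E2f3, against 16.0% of all promoters. The E2F words, the E-box and TTTGAA did not overlap each other in these promoters. The matches describe letters in the sequence and say nothing about binding in these cells.

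Among the D cyclins, Ccnd3 (chromosome 17, 47505051 to 47599691, build mm10 as in GENCODE M21) gave 10.02, 10.20 and 9.75 log2 CPM in PANO libraries 1 to 3, against 10.23, 10.31 and 10.45 in UT libraries 1 to 3. Every PANO library lay below every UT library, by a margin of 0.034 at the nearest. The log2 fold change was -0.34 (95% confidence interval -0.62 to -0.061) and did not pass (limma adjusted p = 0.0577). It passed without PANO library 2 (-0.44, adjusted p = 0.0307) and without UT library 1 (-0.39, adjusted p = 0.0475), and the adjusted p of all its alternatives ran from 0.0180 to 0.176. Ccnd2 (chromosome 6, 127125162 to 127152193), the D cyclin induced by many growth signals in lymphocytes, gave 6.81, 6.84 and 6.79 log2 CPM in PANO libraries, against 6.45, 6.97 and 6.73 in UT libraries. The PANO values fell inside the UT range, and the interval of the log2 fold change ran from -0.20 to 0.39 (limma adjusted p = 0.584). Ccnd1, which lymphocytes normally keep low, gave 2.14, 2.83 and 2.40 log2 CPM in PANO libraries, against 1.98, 2.07 and 2.11 in UT libraries (log2 fold change 0.40, limma adjusted p = 0.195). A 3′ end kit gives reads from transcript ends, so CPM were not divided by length, and Ccnd3 made up 88.1% to 90.6% of the summed CPM of the 3 D cyclins in PANO libraries and 90.7% to 92.9% in UT libraries.

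The kinase partners of the D cyclins both fell. Cdk4 (chromosome 10, 127063534 to 127067920) gave 7.14, 7.07 and 7.23 log2 CPM in PANO libraries, against 7.47, 7.50 and 7.77 in UT libraries. The highest PANO library lay 0.24 below the lowest UT library. Its level fell by 25.9%, a log2 fold change of -0.43 (SE 0.098, limma adjusted p = 0.0114). Cdk6 (chromosome 5, 3341485 to 3531008), the form with a leading role in thymocytes and T-ALL, gave 4.58, 4.70 and 4.59 log2 CPM in PANO libraries, against 5.04, 5.03 and 5.03 in UT libraries. The UT libraries nearly coincided (SD 0.0090) and all PANO libraries lay below them. Cdk6 fell by 24.8% (log2 fold change -0.41, SE 0.094, limma adjusted p = 0.0116). Both calls held with each library left out in turn, at log2 fold changes of -0.49 to -0.34 for Cdk4 and -0.45 to -0.39 for Cdk6. In these fits the limma adjusted p reached 0.0447 for Cdk4 and 0.0484 for Cdk6, just under the threshold of 0.05.

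The partner of the E and A cyclins moved the other way. Cdk2 (chromosome 10, 128697939 to 128705031) gave 5.15, 5.22 and 5.43 log2 CPM in PANO libraries, against 4.87, 3.53 and 3.80 in UT libraries. All PANO libraries were higher, but UT library 1 lay within 0.29 of the lowest of them, and the other UT libraries lay more than 1 log2 unit lower. The change was the largest of the 10 genes (2.30-fold, log2 fold change 1.20, SE 0.31, limma adjusted p = 0.0190). Its interval, 0.48 to 1.92, was the widest of the 10. The call was lost without PANO library 2 (1.23, adjusted p = 0.0512), PANO library 3 (1.12, adjusted p = 0.0625) or UT library 3 (1.07, adjusted p = 0.0693). Without UT library 1 the change was 1.60 (adjusted p = 0.000421), and the adjusted p of all alternatives ran from 0.000421 to 0.0693.

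Of the pocket protein genes, 1 rose and 1 fell. Rb1 (chromosome 14, 73183673 to 73325822), the retinoblastoma tumour suppressor, gave 4.96, 4.86 and 4.89 log2 CPM in PANO libraries, against 4.38, 4.12 and 3.94 in UT libraries. The PANO libraries lay close together (SD 0.053), and the lowest of them was 0.48 above the highest UT library. Rb1 rose 1.69-fold (log2 fold change 0.76, SE 0.13, limma adjusted p = 0.00439), at 0.65 to 0.87 with 1 library left out. Rbl1 (chromosome 2, 157145893 to 157204534), whose product p107 is found mainly in cycling cells and whose gene is itself a known E2F target, gave 5.53, 5.44 and 5.17 log2 CPM in PANO libraries, against 5.82, 5.86 and 5.85 in UT libraries. All PANO libraries were lower, and PANO library 3 was the lowest. Rbl1 fell by 27.3% (log2 fold change -0.46, SE 0.11, limma adjusted p = 0.0144). Its call held with each library left out, at a limma adjusted p of up to 0.0489. Rbl2 (chromosome 8, 91070057 to 91123844), whose product p130 is most abundant in resting cells, gave 3.56, 3.51 and 3.44 log2 CPM in PANO libraries, against 3.56, 3.30 and 3.40 in UT libraries. The groups overlapped, and the interval of the log2 fold change ran from -0.24 to 0.40 (limma adjusted p = 0.669).

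The E2F genes gave the largest fall and the second largest rise. E2f3 (chromosome 13, 29906575 to 29986063) gave 4.90, 5.01 and 4.62 log2 CPM in PANO libraries, against 5.64, 5.62 and 5.69 in UT libraries. The groups were separated by 0.62. E2f3 fell by 42.9% (log2 fold change -0.81, SE 0.12, limma adjusted p = 0.00208), at -0.89 to -0.70 with 1 library left out. Its long and short proteins begin at the different starts printed above, and the 3′ end reads do not separate them. E2f4 (chromosome 8, 105297663 to 105305370) gave 4.35, 4.05 and 4.68 log2 CPM in PANO libraries, against 3.58, 3.30 and 3.24 in UT libraries. PANO library 3 was the highest, and the lowest PANO library stood 0.47 above the highest UT library. E2f4 rose 1.98-fold (log2 fold change 0.98, SE 0.19, limma adjusted p = 0.00554), at 0.83 to 1.14 with 1 library left out.

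**Figure D2:**
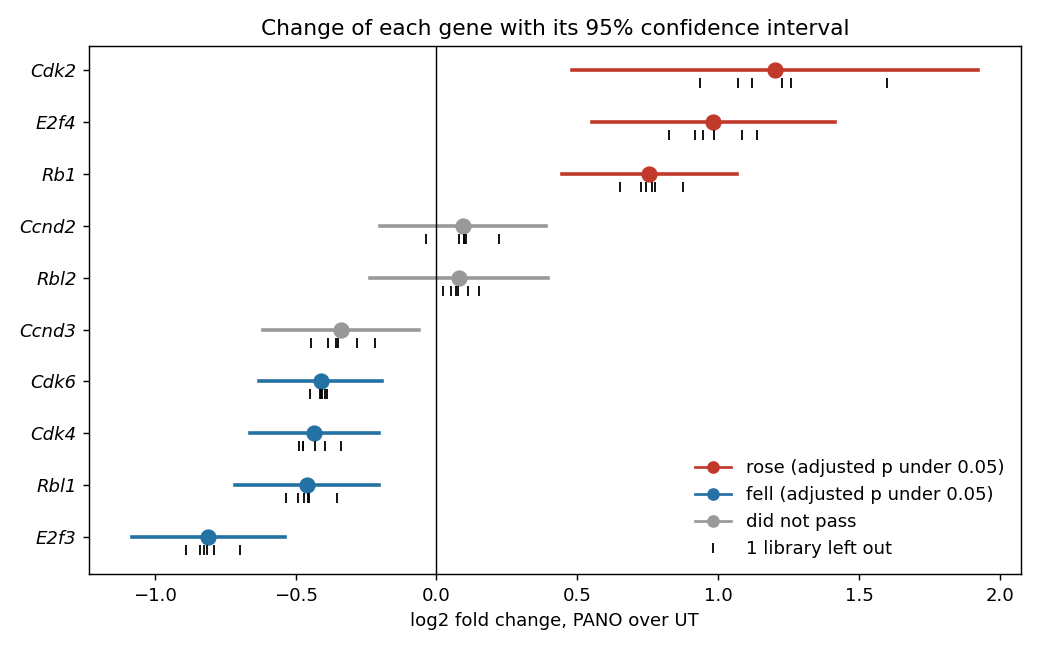
Log2 fold change (PANO over UT) of each of the 10 genes, as a point with its 95% confidence interval from limma, with short ticks below for the fits that leave out 1 library each. Cdk2 has the widest interval, 0.48 to 1.92, and Ccnd2 is the gene whose ticks fall on both sides of 0.

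Ratios of related genes within a library do not depend on a single scaling factor for that library, although quantile normalization can alter them, and 5 were compared. The log2 ratio of E2f3 to E2f4 was 0.55, 0.96 and -0.056 in PANO libraries, against 2.07, 2.32 and 2.44 in UT libraries. It was 3.47-fold lower in PANO cells, the largest shift of the 5. For Rbl1 over Rb1 the log2 ratio was 0.56, 0.58 and 0.28 in PANO libraries, against 1.43, 1.74 and 1.91 in UT libraries. For Rbl2 over Rb1 it was -1.40, -1.35 and -1.45 in PANO libraries, against -0.82, -0.82 and -0.54 in UT libraries. These 3 ratios did not overlap between groups (exact permutation test, two-sided, p = 0.1, which is the smallest that 3 against 3 libraries allow, and 0.167 adjusted over the 5 ratios). This outcome was fixed by the levels given above. For E2f3 over E2f4 and Rbl1 over Rb1 the first gene was lower and the second higher in every PANO library. For Rbl2 over Rb1 the gap between the groups in Rb1 (0.48) exceeded the whole range of Rbl2, 3.30 to 3.56 log2 CPM. These 3 tests therefore add no separate evidence. The log2 ratio of Ccnd3 to Ccnd2 averaged 3.18 ± 0.21 in PANO and 3.61 ± 0.24 in UT libraries (SD, n = 3 each; exact permutation p = 0.2, adjusted 0.25), with overlap between the groups. Cdk6 over Cdk4 averaged -2.52 ± 0.14 in PANO and -2.55 ± 0.17 in UT libraries (SD, n = 3 each; exact permutation p = 0.9). The difference of 0.022 lay well inside the spread between libraries, so no unequal change of these kinases was detectable here.

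**Figure D3:**
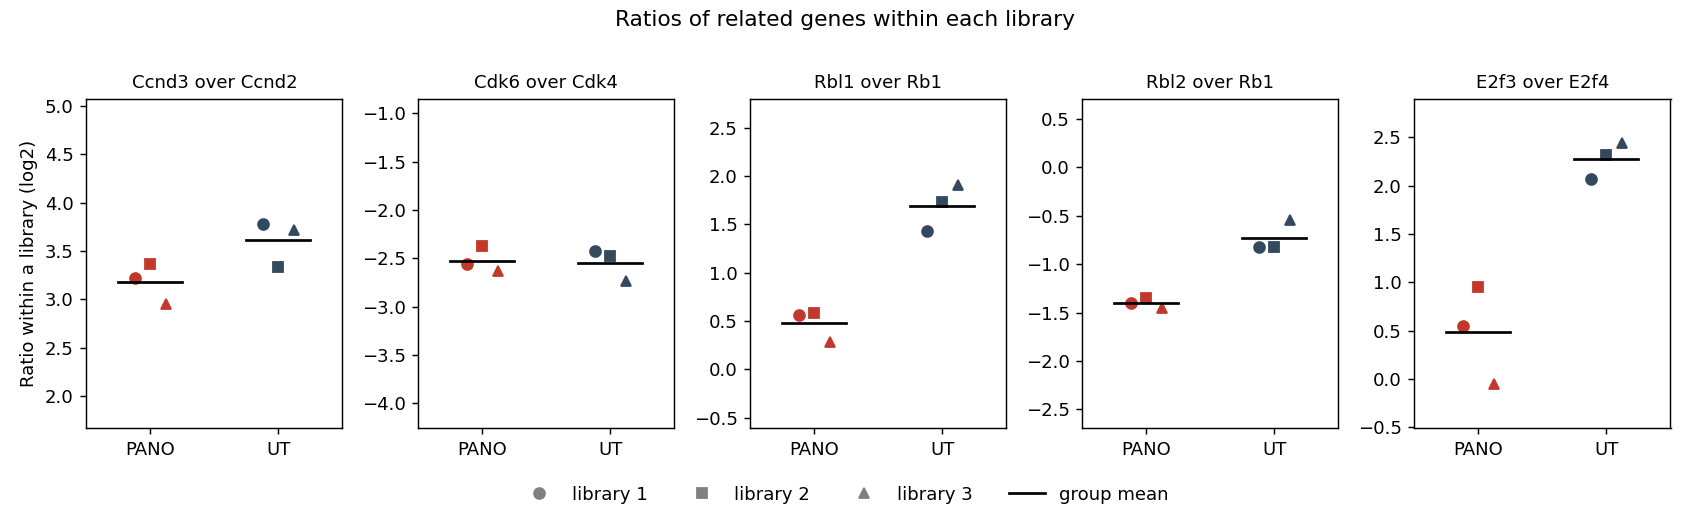
Log2 ratio of 2 related genes within each library, PANO left of UT, with a bar at the group mean; all panels span the same number of log2 units. The ratios of Rbl1 to Rb1, Rbl2 to Rb1 and E2f3 to E2f4 are lower in all PANO libraries, while Cdk6 over Cdk4 averages -2.52 in PANO and -2.55 in UT libraries.

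Several of the genes share their transcript ends with a gene on the other strand, and whether reads were counted by strand is not given in the sources used here. In GENCODE M21, 4 of the 10 genes had such a neighbour in the table within the last 500 bases of an annotated transcript. Tspan31, a tetraspanin gene over the end of Cdk4, gave 3.65, 3.64 and 3.56 log2 CPM in PANO libraries, against 2.07, 2.18 and 2.26 in UT libraries. It rose while Cdk4 fell (log2 fold change 1.45, SE 0.15, limma adjusted p = 0.000635). Rcbtb2, over the end of Rb1, fell while Rb1 rose (-0.77, SE 0.22, limma adjusted p = 0.0251), although this call was kept in only 3 of the 6 fits without 1 library. Lpar6, a receptor gene that lies inside an Rb1 intron on the other strand, also fell (-0.85, SE 0.13, limma adjusted p = 0.00285). Bysl, a ribosome assembly gene over the end of Ccnd3, rose (0.58, SE 0.11, limma adjusted p = 0.0063), and Aktip, over the end of Rbl2, rose with its call kept in 1 of 6 such fits (0.47, SE 0.15, limma adjusted p = 0.0401). Without strand, reads from both genes of such a pair cannot be told apart. The changes of Cdk4, Rb1 and their neighbours ran in opposite directions, and the part of shared reads in the values was not tested. Cdk6, Cdk2, Rbl1, E2f3, E2f4 and Ccnd2 had no neighbour in the table over their transcript ends.

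**Figure D4:**
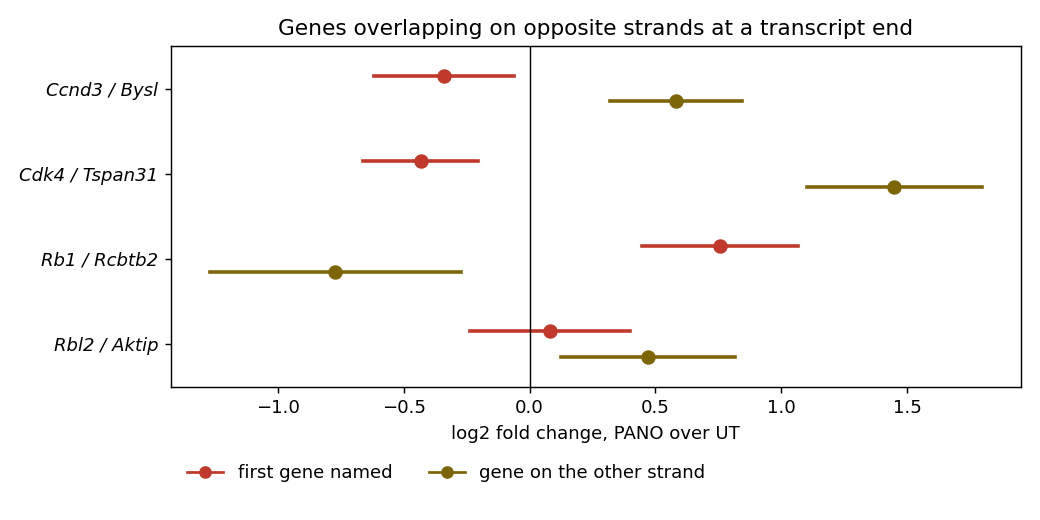
Log2 fold change (PANO over UT) with 95% confidence intervals for 4 of the genes and for the gene on the other strand that overlaps the last 500 bases of one of their transcripts. Cdk4 and Tspan31, Rb1 and Rcbtb2, and Ccnd3 and Bysl lie on opposite sides of 0.

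The wider pathway was read from lists of genes that act beside these 10. The counts of each list may be read against all tested genes, of which 19.2% rose and 19.0% fell (38.3% called). No list was tested as a set. Among the remaining E2F and DP genes 1 rose and 2 fell of 8 measured, with a median log2 fold change of -0.30. E2f8, an atypical repressor, fell (-1.12, SE 0.13, limma adjusted p = 0.000959), as did the activator E2f2 (-0.73, SE 0.11, limma adjusted p = 0.00254). The activator E2f1 gave 5.79, 5.78 and 5.71 log2 CPM in PANO libraries, against 5.78, 6.07 and 6.33 in UT libraries, and did not pass (-0.30, limma adjusted p = 0.123). It passed without UT library 1 (-0.44, adjusted p = 0.0129). Of the DP proteins, the obligate partners of E2F, Tfdp2 rose (0.34, SE 0.081, limma adjusted p = 0.0133) and Tfdp1 stood at -0.31 (limma adjusted p = 0.171). The Tfdp2 call was lost without PANO library 3 (0.31, adjusted p = 0.0626).

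The MuvB complex joins Rbl1 or Rbl2 with E2f4 to form the DREAM repressor, and joins Mybl2 or Foxm1 later in the cycle. Of this list 2 rose and 4 fell of 7 measured, with a median of -0.54. The DNA-binding subunit gene Lin54 rose (1.22, SE 0.15, limma adjusted p = 0.00128). Dyrk1a, a kinase that promotes DREAM assembly, fell (-0.98, SE 0.13, limma adjusted p = 0.00136), as did Foxm1 (-0.54, SE 0.10, limma adjusted p = 0.00433). Lin52 was too low to be tested.

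In the list of G1 cyclins and CDK activation 2 rose and 1 fell of 11 measured, with a median of -0.014. This list also holds the mitotic kinase Cdk1 and Wee1, a kinase that inhibits CDKs, and neither passed. The rises were those of Cdk7 (0.84, SE 0.11, limma adjusted p = 0.0012) and Ccnh (0.57, SE 0.12, limma adjusted p = 0.00817), which encode the kinase and cyclin of the CDK-activating complex. Mnat1, its assembly factor, stood at -0.014. Cyclin E was divided. Ccne2 fell (-0.49, SE 0.10, limma adjusted p = 0.00856), and Ccne1 stood at 0.25 and did not pass (limma adjusted p = 0.0814).

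The CDK inhibitor genes gave 3 rises and 1 fall of 7 measured, with a median of -0.028. Cdkn1a (p21, log2 fold change 1.29) binds Cdk2 complexes, while Cdkn2d (p19, 0.84) binds Cdk4 and Cdk6, and both rose with Cdkn2a (0.68). Cdkn2c (p18), another inhibitor of Cdk4 and Cdk6, gave 4.22, 4.38 and 4.36 log2 CPM in PANO libraries, against 4.89, 5.04 and 5.21 in UT libraries, and fell (-0.72). Log2 fold changes were -0.028 for Cdkn1b (p27), -0.055 for Cdkn1c and -0.29 for Cdkn2b, and none of the 3 passed.

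Genes for the turnover of G1 cyclins and CDK inhibitors gave 3 rises and 3 falls of 9 measured, with a median of -0.035. Fbxw7, the F-box gene that directs cyclin E and Notch1 to degradation, rose (0.53, SE 0.087, limma adjusted p = 0.00332). Ambra1, which directs D cyclins to degradation, fell (-0.59, SE 0.10, limma adjusted p = 0.00373), and so did the cullin gene Cul1 (-0.62, SE 0.077, limma adjusted p = 0.0011). Among E2F target genes of S phase 4 rose and 8 fell of 17 measured, with a median of -0.18. The replication licensing gene Cdt1 (-0.75), Tyms (-0.80) and Rrm2 (-0.54), both of nucleotide synthesis, had the smallest adjusted p among them.

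**Figure D5:**
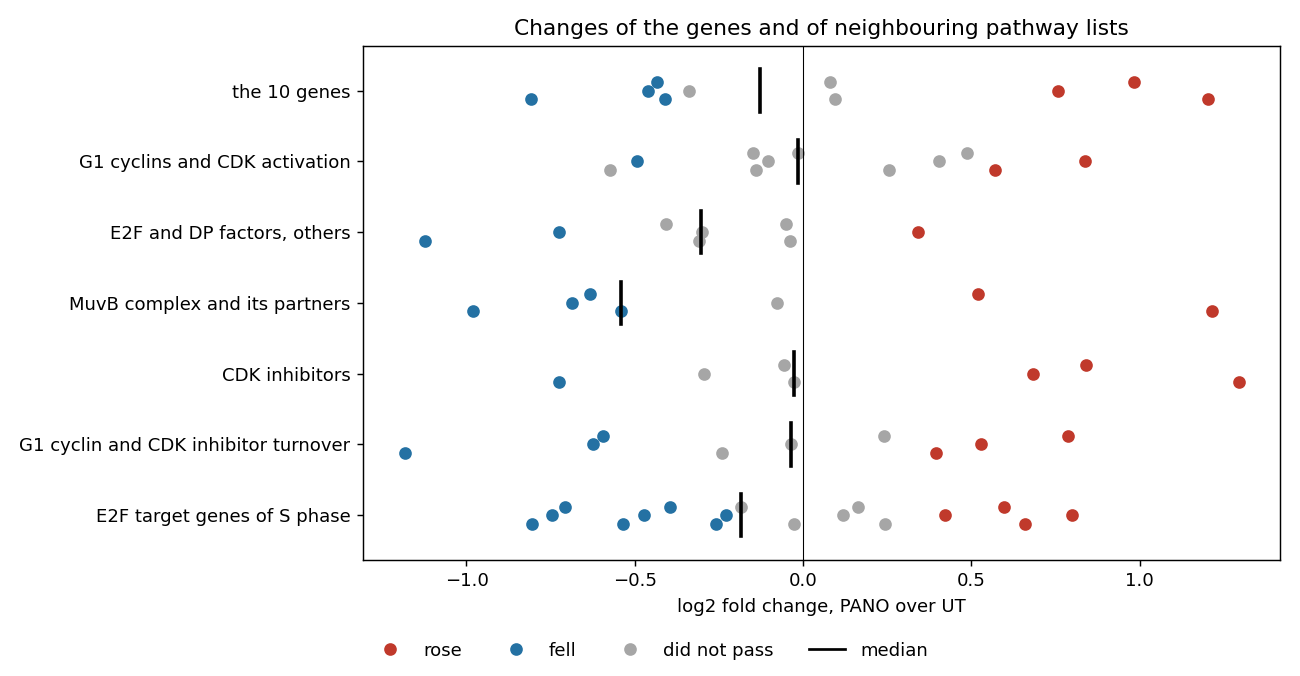
Log2 fold change (PANO over UT) of each tested gene in the group of 10 and in 6 pathway lists, coloured by whether the gene rose, fell or did not pass, with a bar at the median of each list. Each list holds genes on both sides of 0, and the MuvB list has the lowest median, -0.54.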

How the data were processed

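RNA from 3 PANO and 3 UT samples was sequenced from 3′ ends, with libraries made from 100 ng of total RNA, per the labels' protocols. The submitters' processing notes name the build mm10, limma, HISAT2 2.1.0, Subread 1.5.0 with its counter featureCounts, and cutadapt 1.9. Annotation, strand setting and filters are not given in the sources used here. A single table of log2 values per gene was deposited by the authors. That they are log2 CPM, quantile normalized between libraries, was inferred from the values, whose powers of 2 summed to between 994114 and 994182. Columns were matched to samples by the number after the letter S in the titles, and libraries are numbered as in the column names. Nothing in the labels states that replicates are separate cultures or mice, and the spread behind each p-value may thus be a technical one. No pair of libraries was identical.

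Of 13185 genes, the 12554 whose log2 averaged 0 or more across all libraries were tested with limma 3.58.1 in R 4.3.3 (lmFit, eBayes with a mean-variance trend) and Benjamini-Hochberg adjustment at 0.05. No pseudocount was added. SE is the moderated standard error. Reads per CPM were taken as 200 divided by the CPM spanned by the lowest 200 steps between distinct values, and reads are not independent molecules. The fit was also run on simulated data with independent noise and 200 changed genes. Far more genes were called in the real data, so that run checks the code and not these calls. Positions came from GENCODE M21, and promoters from RefSeq (GRCm38.p6). No set test was run.

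The 10 genes and the lists were chosen with earlier results of these data known. Named from the lists were the up to 3 called genes with the smallest adjusted p, and always Ccnd1, Ccne1, E2f1, E2f2, Tfdp1 and the CDK inhibitors. Mnat1, Lin52 and Wee1 were named after their values were seen, and overlapping genes were named from the annotation. Alternatives were 2 other filters, a trimmed mean scaling, 2 other spread models, a threshold of 0.01, a pseudocount of 1, each library left out and, added later, a replicate block. Text tables were read with Python 3.11.15.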

Additional observations from a re-analysis of the deposited data

How the results depend on the processing

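Over the 10 genes, 129 of 140 pairings of a gene with an alternative kept both the direction and the side of the threshold. Genes that stayed uncalled count among these. The other filters, the fit without a trend, the replicate block and the 0.01 threshold could alter only calls, since they leave each log2 fold change as it was. Of 4806 calls over all tested genes, 2513 had an adjusted p under 0.01, and at that threshold 2 of the 10 genes rose (Rb1 and E2f4) and 1 fell (E2f3). The trimmed mean scaling, both other filters, the fit without a trend and a pseudocount of 1 left 3 rises and 4 falls, and sample weights gave 3 and 5, with Ccnd3 passing (-0.42, adjusted p = 0.018, range over its alternatives 0.018 to 0.176). With 1 library left out, 2 to 3 of the genes rose and 4 to 5 fell, Cdk2 being the gene that lost its call. Ccnd2, which was not called, changed sign without UT library 1 (-0.037, and 0.082 to 0.22 in the other such fits). The log2 ratio of Cdk6 to Cdk4 differed by -0.073 to 0.083 in these fits, around 0.022 with all libraries. Other sign changes were those of Cdkn1b, at 0.00073 with sample weights and -0.11 to 0.070 with 1 library left out, and of Cdkn1c, at 0.086 with sample weights and -0.42 to 0.37 with 1 library left out, neither of which was called. The cause of these changes was not tested. The table's column names number both groups 1 to 3, but nothing says that a number marks a shared origin, and deviations from the group means of same-numbered libraries correlated at -0.044, 0.10 and -0.011, with not every library closest to its own number. A replicate block on that number, added after seeing the data, gave 4148 calls over all tested genes and left 3 rises and 4 falls among the 10 genes. Depth limits Rbl2, with an estimated 66.5 to 91.3 reads per library, and also E2f4 in UT libraries, with an estimated 62.5 to 92.4.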

Other observations

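The genes whose levels over the 6 libraries lay closest to Cdk2 and to E2f3, the called genes with the largest rise and the largest fall, were found by the root mean square difference of log2 values centred on each gene's mean. For Cdk2 these were Rcc1, a regulator of the Ran GTPase on chromatin (difference 0.107), Btbd10 (0.113), the polycomb gene Phc3 (0.116), the copper chaperone gene Cox17 (0.117) and the proteasome subunit gene Sem1 (0.118). Their log2 fold changes ran from 1.11 (Rcc1) to 1.32 (Btbd10). For E2f3 they were Mcat (0.047), Arhgap9 (0.053), Pigk (0.054), the Hedgehog receptor gene Smo (0.056) and the dendritic and lymphocyte surface gene Cd83 (0.059), with log2 fold changes from -0.79 (Smo) to -0.72 (Pigk). Choosing genes by this closeness makes their log2 fold changes resemble those of Cdk2 and E2f3, so the likeness is not a separate result. The Rcc1 call (limma adjusted p = 0.0246) did not hold in 4 of its 6 refits on 5 libraries.

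The position of UT library 1 near the PANO libraries in Cdk2 recurred in 3 further cell cycle genes, chosen after their values were seen. Cdk1, the mitotic kinase, gave 7.90, 8.03 and 8.13 log2 CPM in PANO libraries, against 8.01, 7.13 and 7.45 in UT libraries, and did not pass (0.49, limma adjusted p = 0.0899). The replicative helicase gene Mcm4 gave 6.59, 6.89 and 6.93 log2 CPM in PANO libraries, against 6.44, 5.69 and 5.88 in UT libraries (0.80, limma adjusted p = 0.0141). Mcm6, of the same helicase, gave 7.25, 7.46 and 7.41 log2 CPM in PANO libraries, against 7.09, 6.39 and 6.66 in UT libraries (0.66, limma adjusted p = 0.0174). In each of them UT library 1 was the highest UT library by more than 0.4 log2 units. The Mcm4 call held in 4 and the Mcm6 call in 3 of 6 refits on 5 libraries. The position of UT library 1 was not limited to such genes. Over all tested genes it also lay nearer the PANO libraries on the first principal component (-25.7, against -48.0 and -41.0). Nor did every cell cycle gene show it. UT libraries 1 to 3 gave 6.68, 6.73 and 6.77 log2 CPM for Cdc6, which rose, and 6.78, 6.73 and 6.75 for Rrm2, which fell.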
